A study of Mus musculus with 6 samples.

Results

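The genes of the cAMP effectors protein kinase A (PKA) and Epac were examined in pancreatic islets, the hormone-secreting cell clusters of the pancreas, of mice lacking the short-chain fatty acid receptor Ffar3. The members were chosen by symbol: Prkaca and Prkacb (catalytic subunits), Prkar1a, Prkar1b, Prkar2a and Prkar2b (regulatory subunits), and Rapgef3 and Rapgef4 (Epac1 and Epac2). All 8 had a single row among the 23179 rows of each library, and all 8 had a mean of at least 1 FPKM (fragments scaled by transcript length and library size) over the libraries and were tested. The KO group was Ffar3-/- and the WT group wildtype, both labelled C57BL/6J, male and 10 to 14 weeks old, with 3 libraries of total islet RNA each. Each library came from islets picked out of isolations pooled from 2 pancreata, and the libraries were described as biological replicates. How the Ffar3 allele was made, and in which cells it is lost, is not given in the sources used here.

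cAMP acts in islet cells mainly through these effectors. The PKA holoenzyme joins a pair of regulatory to a pair of catalytic subunits. When cAMP binds the regulatory subunits, the catalytic subunits are freed to phosphorylate their targets. Epac proteins are exchange factors that load Rap GTPases with GTP when they bind cAMP. Incretin hormones raise cAMP in beta cells and so amplify insulin release, and Ffar3 couples to inhibitory G proteins, which lower cAMP.

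In the KO libraries, the type II regulatory subunit Prkar2b was lower by 28.4% of the WT mean, and its call held in all 16 alternative analyses. Prkaca was lower by 17.5% and Prkar2a higher by 21.3%, and both of these calls were lost in several alternatives, described with each gene. The other 5 members did not pass the test over the 6 libraries, which 39.9% of all tested genes passed. In every KO library Prkacb stood higher relative to Prkaca than in any WT library. This follows from the genes taken singly, since each KO library was above every WT library for Prkacb and below for Prkaca.

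Ffar3 and the markers of other cell types served as a check of the libraries. Ffar3 had an FPKM of 0.105 in KO replicate 3 and was listed at 0 in the other two KO libraries, against 4.69 to 6.68 FPKM in the WT libraries. Digestive enzymes and factors of acinar cells (27 of 27 genes found, 26 with a mean of at least 1 FPKM) took 6.41%, 38.2% and 53.8% of the FPKM sum in KO replicates 1, 2 and 3, against 6.67% to 9.93% in WT. Summed over a list, duct markers lay at 396 to 2498 FPKM in KO against 341 to 400.5 in WT. Tff2 made up most of this sum in KO replicates 2 and 3, at 904 and 2138 FPKM. The duct markers did not rise as a set: Krt19 and Epcam were higher in each KO library than in any WT library, and Krt7 was lower. Lymphocyte markers summed to 9.36 to 64.4 FPKM in KO against 6.77 to 7.52 in WT. The lymphocyte sum was 33.0, 64.4 and 9.36 FPKM in KO replicates 1, 2 and 3, so KO replicate 1, low in acinar transcripts, was above WT here. The lymphocyte genes Ms4a1, Cd3d, Cd3e, Pax5 and Cd8a were listed at 0 in all WT libraries. Macrophage markers summed to 74.2 to 188 FPKM in KO and 94.1 to 104 in WT, Schwann and neural markers to 7.76 to 20.5 in KO and 7.94 to 9.57 in WT, and stellate and pericyte markers to 28.4 to 38.5 in KO and 35.2 to 38.6 in WT. The macrophage sum was above the WT range in KO replicates 1 and 2 and below it in KO replicate 3. Endocrine markers were abundant, as the islet label implies, and summed lower in KO. Beta cell markers without insulin lay at 29512 to 36173 FPKM in KO and 37565 to 39344 in WT, alpha cell markers at 7303 to 13688 in KO and 19941 to 24146 in WT, and delta cell markers at 2640 to 4703 in KO and 5165 to 5445 in WT. Ins2 was listed at 0 in all 6 libraries and Ins1 in 4 of them, so the insulin genes were not usable. In such bulk samples, fewer cells of a type and less RNA per cell cannot be told apart. Read depth is unknown.

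For the members on which the results turn, the sequence around the transcription start is given first: the RefSeq window of GRCm38.p6 from 250 bases before to 50 bases after the start, 5′ to 3′ on the gene's strand. Of the windows listed for a gene, the one nearest the 5′ end of its GENCODE gene was taken. Capitals mark the core of the cAMP response element (CRE), the site of CREB, a transcription factor that PKA phosphorylates. The letters searched were TGACG and, on the other strand, CGTCA.

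Prkaca (chr8:83972728-83973027, plus strand): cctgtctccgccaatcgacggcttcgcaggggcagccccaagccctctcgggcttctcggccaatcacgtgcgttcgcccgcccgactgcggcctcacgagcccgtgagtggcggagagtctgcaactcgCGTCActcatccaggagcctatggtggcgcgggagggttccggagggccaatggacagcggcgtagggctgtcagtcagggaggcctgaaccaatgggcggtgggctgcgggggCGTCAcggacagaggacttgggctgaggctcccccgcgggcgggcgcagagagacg
Prkacb (chr3:146812897-146813196, minus strand): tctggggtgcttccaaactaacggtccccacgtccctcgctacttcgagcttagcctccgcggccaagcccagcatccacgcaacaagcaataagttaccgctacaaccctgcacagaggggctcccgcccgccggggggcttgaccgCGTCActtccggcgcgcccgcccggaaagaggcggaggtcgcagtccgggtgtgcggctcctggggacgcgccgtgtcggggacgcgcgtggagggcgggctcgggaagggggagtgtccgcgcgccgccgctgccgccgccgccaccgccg
Prkar2a (chr9:108691893-108692192, plus strand): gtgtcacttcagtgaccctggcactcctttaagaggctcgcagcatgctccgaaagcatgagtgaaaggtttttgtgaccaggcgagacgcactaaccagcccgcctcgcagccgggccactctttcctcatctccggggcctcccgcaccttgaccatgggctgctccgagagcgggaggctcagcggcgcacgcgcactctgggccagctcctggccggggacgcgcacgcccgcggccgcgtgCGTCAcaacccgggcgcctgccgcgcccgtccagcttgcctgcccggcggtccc
Prkar2b (chr12:32061228-32061527, minus strand): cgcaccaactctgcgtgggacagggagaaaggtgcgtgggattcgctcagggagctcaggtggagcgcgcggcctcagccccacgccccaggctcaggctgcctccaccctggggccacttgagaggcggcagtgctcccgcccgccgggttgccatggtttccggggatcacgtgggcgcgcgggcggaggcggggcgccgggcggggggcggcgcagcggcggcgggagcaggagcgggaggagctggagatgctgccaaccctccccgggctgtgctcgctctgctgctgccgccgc

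The Prkaca window held 2 matches, which begin 120 and 6 bases before the start. The Prkacb window held 1 match, 102 bases before the start, and the Prkar2a window 1, at 4 bases before it. The Prkar2b window held none of these letters. The GC content was 69.7% in the Prkaca window, 72.0% in that of Prkacb, 69.0% in that of Prkar2a and 75.0% in that of Prkar2b, against a median of 52.7% over all 32851 windows of the table. The core was found in 20.8% of all windows and in 8 of the 21 windows of the 8 members. The full palindrome TGACGTCA, which contains the core on both strands, was in 1.79% of all windows. Among the members it occurred at a single place, inside the annotated span of Prkar1a and within 2 overlapping windows of that gene, before the start of one and after the start of the other. These matches describe the letters and show no binding.

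Transcript levels were ordered alike in both groups except at 1 place. FPKM is scaled by transcript length, so levels can be set beside each other between genes. Prkar1a, which encodes the regulatory subunit RIα, was the most abundant member, with a KO mean of 210 ± 20.9 FPKM and a WT mean of 249 ± 7.57 FPKM (SD, n = 3 each), above 98.1% of the tested genes in WT. Prkacb followed, then Prkaca and Prkar1b, Rapgef4, Prkar2b and Prkar2a, and Rapgef3 was last. Prkaca and Prkar1b were neighbours that changed places. Prkar1b was above Prkaca in each KO library and below it in each WT library, with means 4.30 FPKM apart in KO and 2.04 FPKM apart in WT. The ranges of both genes over the KO libraries overlapped, at 48.2 to 57.0 FPKM for Prkar1b and 43.7 to 51.5 FPKM for Prkaca. The ranges of Prkar1a and Prkacb also overlapped in KO, at 192 to 233 and 167 to 205 FPKM, though Prkar1a was the higher in each library, and did not overlap in WT. All other neighbours in this order stood apart in each group.

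**Figure D1:**
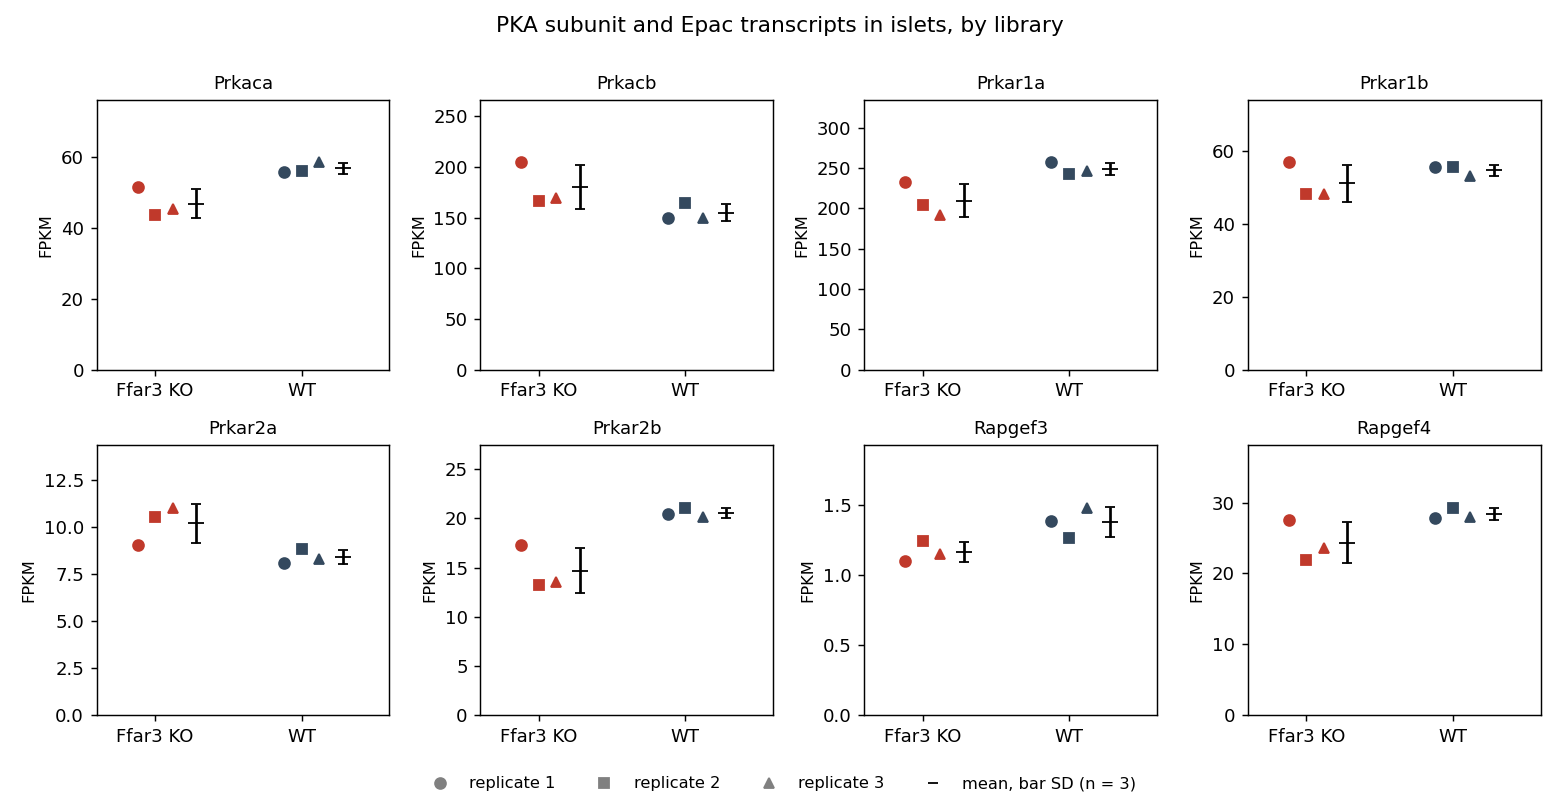
FPKM of the 8 members in each library, with Ffar3 KO left and WT right in every panel; symbols mark the replicate number, the black bar the mean with its SD (n = 3), and each axis starts at 0 with its own range. Groups are apart in 7 panels and overlap for Prkar1b, and KO replicate 1 is the KO library nearest to WT for Prkaca, Prkar1a, Prkar2a, Prkar2b and Rapgef4.

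Calls came from limma on log2(FPKM + 1) across 11669 genes with Benjamini-Hochberg adjustment over all of them, and every adjusted p below is from this test. The threshold was an adjusted p of 0.05, and 39.9% of all tested genes passed it, made up of 20.3% higher and 19.6% lower in the KO libraries. Of the 8 members, 1 was higher, 2 were lower and 5 were not called, so the share called did not exceed that of all genes. The 3 KO libraries lay on 1 side of the 3 WT libraries for 7 of the 8 members, against 56.3% of all tested genes. The median log2 difference was -0.18 over the members and -0.01 over all tested genes. For a single gene, the exact two-sided permutation test cannot go below p = 0.1 with 3 against 3 libraries, and it gave p = 0.1 for 7 members and p = 0.4 for Prkar1b.

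Of the catalytic subunits, Prkaca fell, and Prkacb was not called over the 6 libraries. Prkaca, on chromosome 8 (83972993 to 83996443, plus strand, GRCm38), encodes the Cα subunit, the main catalytic subunit of most tissues. It measured 51.5, 43.7 and 45.4 FPKM in KO replicates 1, 2 and 3, against 55.8, 56.1 and 58.6 FPKM in WT replicates 1, 2 and 3. All KO libraries were below all WT libraries, with KO replicate 1 the nearest to them. Prkaca fell by 0.28 on the log2 scale (SE 0.07, adjusted p = 0.023), and 41.0% of tested genes were at least as far from 0. This call was lost in 5 of the 6 fits that left out 1 library. The adjusted p was 0.059 without KO replicate 2 and 0.053 without KO replicate 3. It was 0.071 without WT replicate 1, 0.060 without WT replicate 2 and 0.088 without WT replicate 3. These 5 fits called 2482 to 4170 genes, against 4657 over the 6 libraries, and put Prkaca at -0.29 to -0.23. In KO replicate 1 alone against WT, the KO library without high acinar transcripts, the log2 difference was -0.14 (adjusted p = 0.14). A processed pseudogene, Prkaca-ps1 on the X chromosome, could share reads with Prkaca. It has no row under that symbol in the deposited values, and how the authors' counting treated shared reads is not given in the sources used here.

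Prkacb, on chromosome 3 (146729574 to 146812990, minus strand), encodes the Cβ subunit, which has several splice forms; 6 protein-coding transcripts are annotated and the deposited value joins them. Prkacb measured 205, 167 and 169 FPKM in KO replicates 1, 2 and 3, against 150, 165 and 150.2 FPKM in the WT libraries. All KO libraries were above all WT libraries, but KO replicate 2 exceeded WT replicate 2 by little. Over the 6 libraries the log2 difference was 0.21 (95% interval -0.02 to 0.44, adjusted p = 0.12) and did not pass. Without KO replicate 1, where Prkacb was highest, it was 0.12 (adjusted p = 0.19). With the mean log2 level of the acinar list as a covariate Prkacb was called higher, at 0.35 (SE 0.08, adjusted p = 0.020), in a fit that called 25.2% of genes. KO replicate 1 alone gave 0.40 (SE 0.08, adjusted p = 0.014), with 26.2% of genes called. These fits are not separate checks, since among the KO libraries KO replicate 1 alone had acinar transcripts as low as WT, and the second fit takes it to vary like the WT libraries.

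Within a library, the ratio of the catalytic transcripts does not depend on how the library was scaled. Prkacb over Prkaca was 3.98, 3.81 and 3.73 in KO replicates 1, 2 and 3, against 2.68, 2.94 and 2.57 in the WT libraries. The lowest KO ratio was above the highest WT ratio, and KO replicate 1, with low acinar transcripts, had the highest of all. The separation follows from the single genes, as each KO library was above every WT library for Prkacb and below for Prkaca. Prkacb made up 79.3% ± 0.526 of the catalytic sum in KO and 73.1% ± 1.36 in WT (SD, n = 3 each). The sum of both catalytic genes overlapped between the groups, at 256, 210.5 and 215 FPKM in KO and 206, 221 and 209 FPKM in WT.

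**Figure D2:**
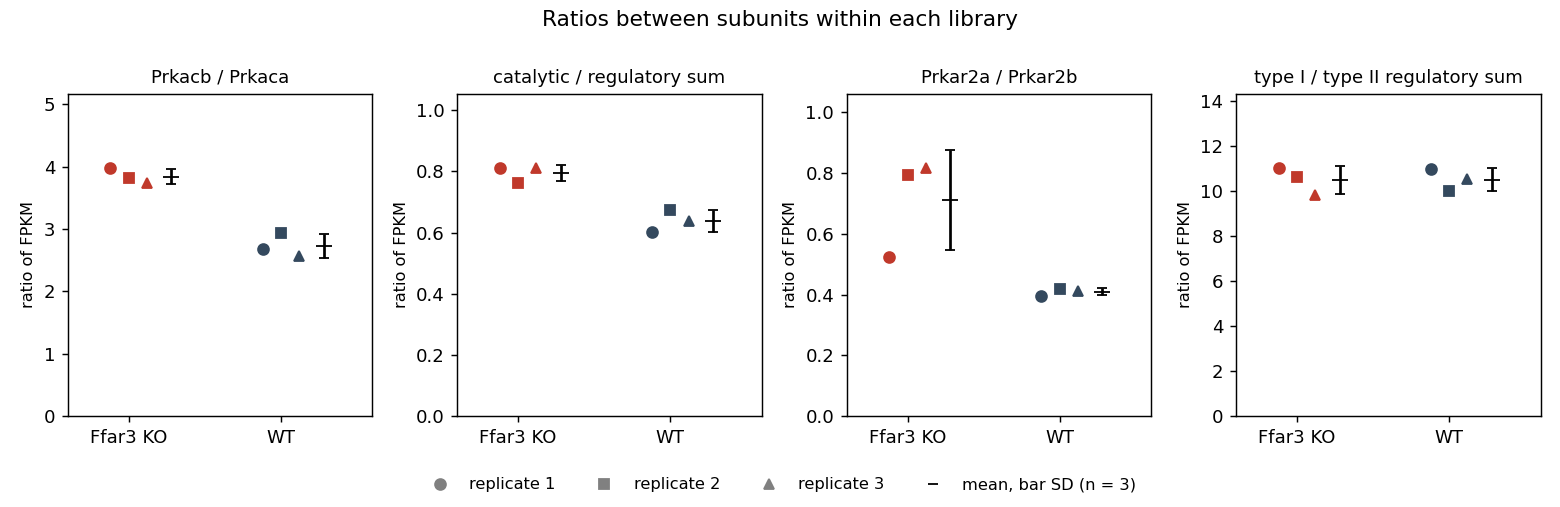
Ratios of FPKM within each library, Ffar3 KO left and WT right, with symbols for the replicate number and bars for the mean and SD (n = 3). The ratio of Prkacb to Prkaca lies at 3.73 to 3.98 in KO and 2.57 to 2.94 in WT. It does not overlap between groups, nor do those of catalytic to regulatory sum and of Prkar2a to Prkar2b. The ratio of type I to type II sum overlaps. For the ratios of single genes, the lack of overlap follows from genes that stood apart in opposite directions.

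Among the type I regulatory subunits, which hold the catalytic subunit with a pseudosubstrate sequence and are largely cytosolic, neither passed over the 6 libraries. Prkar1a, on chromosome 11 (109649405 to 109669656, plus strand), measured 233, 204 and 192 FPKM in KO replicates 1, 2 and 3, against 257, 243 and 246 FPKM in WT. Each KO library was below each WT library, and KO replicates 2 and 3 were further below. The log2 difference was -0.25 (95% interval -0.46 to -0.04, adjusted p = 0.060). It was -0.09 in KO replicate 1 alone. Without that library it was -0.33 (adjusted p = 0.0078), in a fit that called 49.1% of genes.

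Prkar1b, on chromosome 5 (139017306 to 139150001, minus strand), encodes RIβ, known mainly from neural tissue. It measured 57.0, 48.2 and 48.3 FPKM in KO replicates 1, 2 and 3, against 55.6, 55.7 and 53.1 FPKM in WT. KO replicate 1 was above every WT library and the other two KO libraries were below, so the groups overlapped. The log2 difference was -0.10 (95% interval -0.28 to 0.08, adjusted p = 0.32). It turned to 0.06 in KO replicate 1 alone (adjusted p = 0.52) and to 0.02 with the acinar covariate (adjusted p = 0.88), and it was called lower without KO replicate 1, at -0.18 (adjusted p = 0.030), in a fit that called 49.1% of genes. An annotated transcript on the same strand, Gm15672, overlaps exons of Prkar1b and has no row under that symbol in the deposited values.

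The type II regulatory subunits moved apart from each other. These subunits carry a serine that the catalytic subunit phosphorylates, and they bind A-kinase anchoring proteins tightly, which place PKA at membranes and organelles. Prkar2b, on chromosome 12 (31958476 to 32061296, minus strand), encodes RIIβ, prominent in endocrine, neural and adipose tissue. Prkar2b measured 17.3, 13.2 and 13.5 FPKM in KO replicates 1, 2 and 3, against 20.4, 21.1 and 20.1 FPKM in WT. All KO libraries were below all WT libraries, KO replicates 2 and 3 by more than KO replicate 1. Prkar2b fell by 0.47 on the log2 scale (SE 0.10, adjusted p = 0.012), and 19.2% of tested genes were at least as far from 0. The call held in all 6 fits that left out a library, with log2 differences of -0.58 to -0.40 and adjusted p of 0.00068 to 0.046. The difference was smaller, though still called, with the acinar covariate (-0.30, adjusted p = 0.029) and in KO replicate 1 alone (-0.23, adjusted p = 0.045). KO replicates 2 and 3, where Prkar2b was lowest, had the high acinar shares and the lowest alpha and delta cell marker sums, and the part of the endocrine markers in this difference was not tested.

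Prkar2a, on chromosome 9 (108689314 to 108750436, plus strand), encodes RIIα, which most tissues express. It measured 9.04, 10.5 and 11.0 FPKM in KO replicates 1, 2 and 3, against 8.10, 8.83 and 8.31 FPKM in WT. The KO libraries were above the WT libraries, KO replicate 1 by the least. Prkar2a rose by 0.25 on the log2 scale (SE 0.08, adjusted p = 0.048), and 46.0% of tested genes were at least as far from 0. It did not pass without KO replicate 2 (adjusted p = 0.12), KO replicate 3 (0.11), WT replicate 1 (0.15), WT replicate 2 (0.077) or WT replicate 3 (0.14). Prkar2a was at 0.19 to 0.28 in these fits, which called 2482 to 4170 genes, against 4657 over the 6 libraries. With the acinar covariate it was at 0.13 (adjusted p = 0.24), and in KO replicate 1 alone at 0.09 (adjusted p = 0.42). Its order over the KO libraries was that of their acinar shares.

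Prkar2a over Prkar2b was 0.522, 0.794 and 0.816 in KO replicates 1, 2 and 3, against 0.397, 0.419 and 0.413 in WT. KO replicate 1 lay between the WT libraries and KO replicates 2 and 3. That the groups stood apart follows from Prkar2a being higher and Prkar2b lower in each KO library than in any WT library. The type II sum was 24.9 ± 1.32 FPKM in KO and 28.9 ± 0.835 FPKM in WT, and the type I sum 261 ± 25.8 in KO and 304 ± 8.05 in WT (SD, n = 3 each). The ratio of type I to type II transcripts overlapped between the groups, at 9.79 to 11.0 in KO and 9.98 to 11.0 in WT. The catalytic over the regulatory sum was 0.811, 0.763 and 0.810 in KO replicates 1, 2 and 3, against 0.603, 0.674 and 0.637 in WT. All KO libraries were above all WT libraries in this ratio, which combines lower regulatory transcripts in each KO library with catalytic sums that overlapped. Prkacb made up 79.3% of the catalytic sum in KO and 73.1% in WT, and Prkar1a 73.4% and 74.8% of the regulatory sum. These genes, which carry most of the ratio, stood apart in opposite directions, and neither was called over the 6 libraries.

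**Figure D3:**
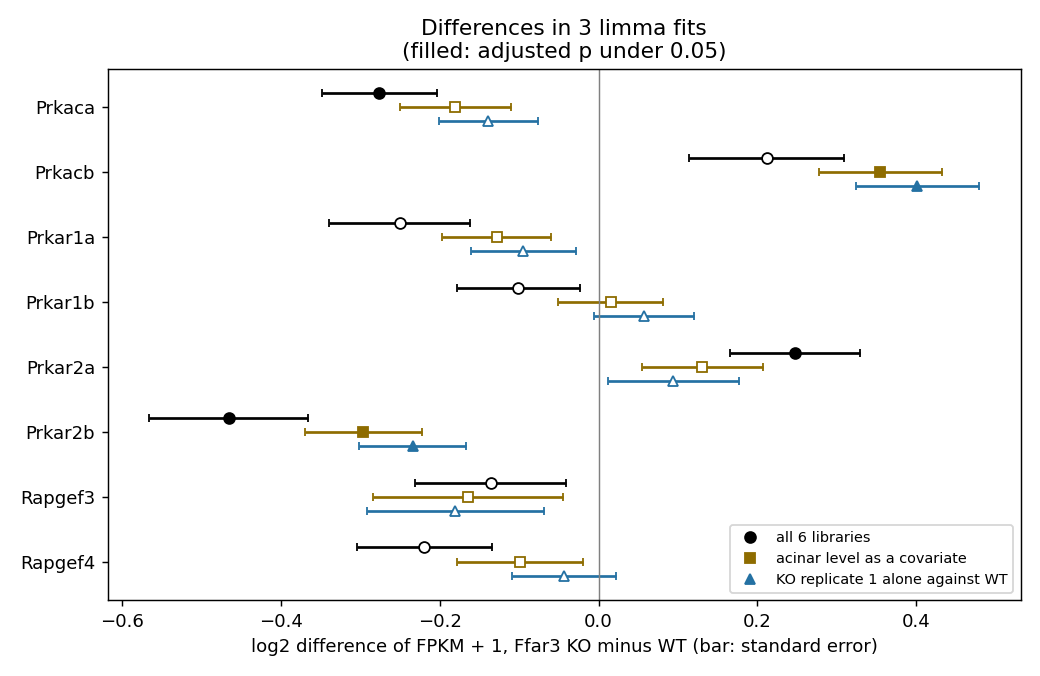
Log2 difference of FPKM + 1, Ffar3 KO minus WT, with its standard error, for the 8 members in limma fits of all 6 libraries, with the acinar level as a covariate, and of KO replicate 1 alone against WT; filled symbols have an adjusted p under 0.05. Prkar2b is filled in all 3 fits (-0.47, -0.30 and -0.23), Prkacb in the last 2 only (0.35 and 0.40), and Prkaca and Prkar2a in the fit of all 6 libraries only.

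The Epac genes did not pass. Rapgef4, on chromosome 2 (71981240 to 72257474, plus strand), encodes Epac2, the form of endocrine and neural cells that sulfonylurea drugs have been reported to bind. It measured 27.5, 21.9 and 23.6 FPKM in KO replicates 1, 2 and 3, against 27.8, 29.3 and 28.0 FPKM in WT. KO replicate 1 was just below the lowest WT library, and the other KO libraries were further down. The log2 difference was -0.22 (95% interval -0.42 to -0.02, adjusted p = 0.077). Without KO replicate 1 it was -0.31 (adjusted p = 0.0069), in a fit that called 49.1% of genes. In that library alone it was -0.04.

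Rapgef3, on chromosome 15 (97744770 to 97767972, minus strand), encodes Epac1, which is broadly expressed and best known from blood vessels. It measured 1.10, 1.24 and 1.15 FPKM in KO replicates 1, 2 and 3, against 1.39, 1.27 and 1.48 FPKM in WT. The groups did not overlap, but KO replicate 2 and WT replicate 2 were close, and the log2 difference was -0.14 (95% interval -0.36 to 0.09, adjusted p = 0.28). Endothelial markers (10 of 10 found, 9 with a mean of at least 1 FPKM) summed to 124 to 151 FPKM in KO and 133 to 170 FPKM in WT, and their part in the level of Rapgef3 was not tested. Rapgef4 took 95.4% ± 0.763 of the Epac sum in KO and 95.4% ± 0.447 in WT. Antisense genes overlap exons of both Epac genes and have no rows under their own symbols in the deposited values. The strand setting of the counting is not given in the sources used here.

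For each called member, the tested genes of most like pattern were those with the smallest root mean square difference of log2(FPKM + 1) over the 6 libraries, each gene centred on its own mean. They included Arsb (0.019) for Prkaca and Bcap29 (0.027) for Prkar2b, and for Prkar2a they were Nkrf (0.020) and Phlpp2 (0.026). Among the members, Rapgef4 and Prkar1a were the closest to Prkaca, at 0.052 and 0.057, and the most distant pair was Prkar2a and Prkar2b, at 0.41.

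The surrounding pathway was read from lists of inhibitors, anchoring proteins and the Rap cycle, with the all-gene share of 39.9% as the background. Of 47 tested genes on these lists, 17 were higher and 7 lower in KO, and their median log2 difference was 0.13, against -0.01 over all tested genes. The PKA inhibitor peptides, which block free catalytic subunits, had 1 of 3 higher and 0 lower. Pkia was at 15.5 ± 1.32 FPKM in KO and 12.6 ± 1.03 in WT (log2 difference 0.27, adjusted p = 0.037). It did not pass without KO replicate 1 (adjusted p = 0.061), KO replicate 2 (0.056), WT replicate 1 (0.10) or WT replicate 3 (0.13). Of the other genes, the PKA-like kinase Prkx rose to 10.3 ± 1.01 FPKM in KO, against 6.81 ± 0.495 in WT (log2 difference 0.54, adjusted p = 0.0044), 1 of 3 tested on its list.

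Among A-kinase anchoring proteins, 20 of 26 genes were tested, 7 rose, 2 fell, and the median log2 difference was 0.11. The largest rise on the list was that of Gpr161, a receptor of primary cilia that binds PKA, at 8.56 ± 0.599 FPKM in KO and 3.00 ± 0.652 in WT (log2 difference 1.27, SE 0.12, adjusted p = 0.00083). Akap11, which binds RI and RII subunits, was at 26.5 ± 1.98 FPKM in KO and 15.7 ± 0.572 in WT (log2 difference 0.71). Akap13, a further anchoring protein, was at 17.3 ± 0.348 in KO and 11.1 ± 0.301 in WT (log2 difference 0.60), and Ezr, the membrane-cytoskeleton linker ezrin, at 53.9 ± 3.56 in KO and 37.6 ± 3.32 in WT (log2 difference 0.51). These 4 genes passed in all 16 alternatives. The genes that fell, named after their values were seen, were Akap7, which anchors PKA at calcium channels, by 0.36, and Cbfa2t3, a transcriptional corepressor, by 0.44 on the log2 scale.

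**Figure D4:**
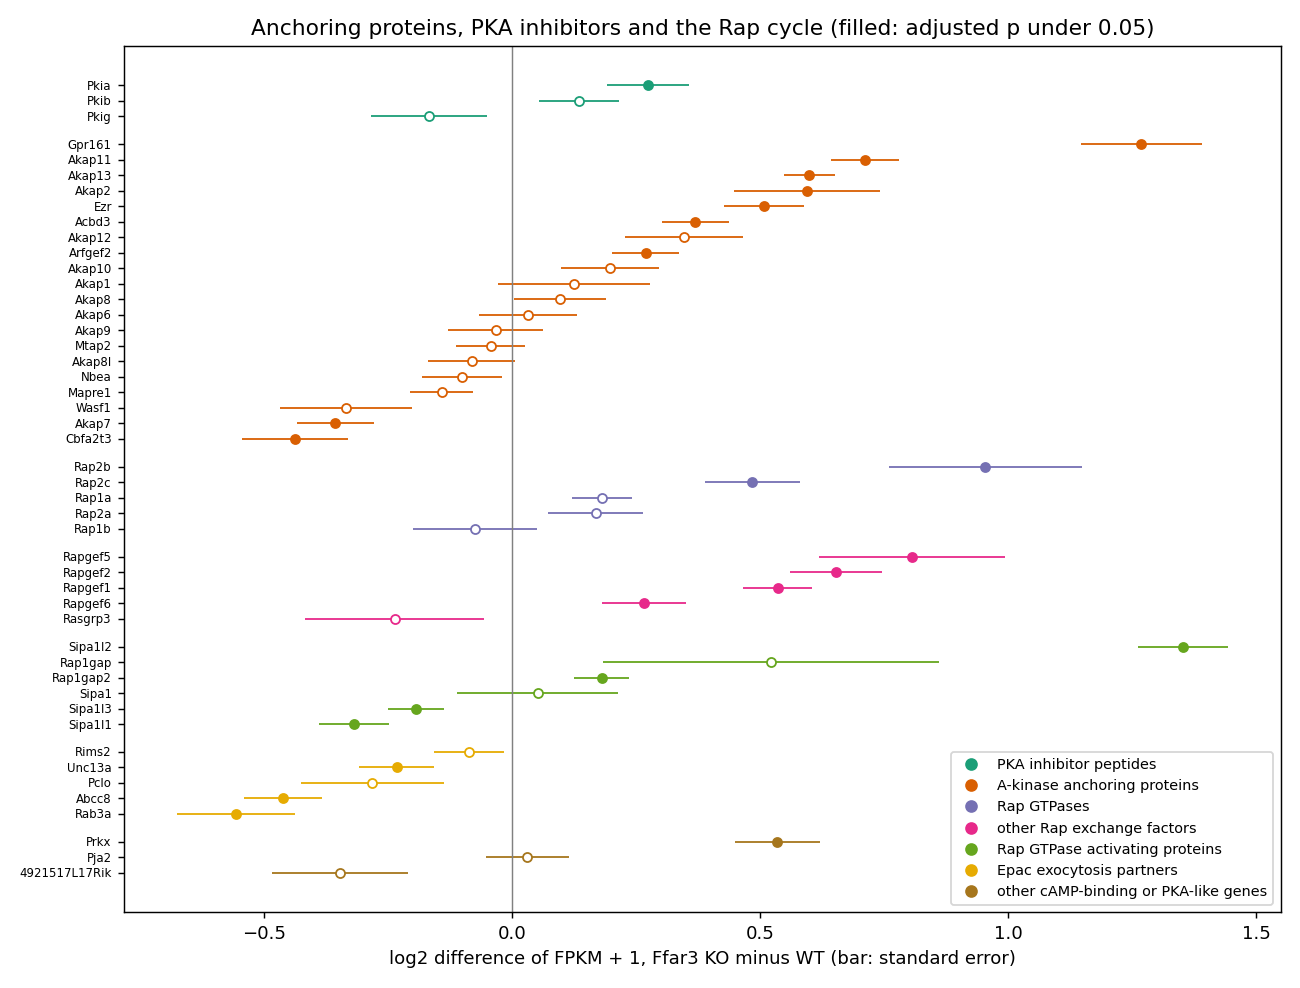
Log2 difference of FPKM + 1, Ffar3 KO minus WT, with its standard error, for the 47 tested genes of the inhibitor, anchoring, Rap cycle and exocytosis lists (colours), ordered by size within each list; filled points have an adjusted p under 0.05. Gpr161 (1.27) and Sipa1l2 (1.35) lie furthest right, and the filled points of the Epac exocytosis partners all lie left of 0.

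On the Rap side, the exchange factors other than Epac had 4 of 5 higher and 0 lower, with a median log2 difference of 0.54. Rapgef1 was at 18.9 ± 1.54 FPKM in KO and 12.7 ± 0.429 in WT, and Rapgef2 at 8.24 ± 0.998 in KO and 4.86 ± 0.308 in WT. Rapgef5 was at 3.07 ± 1.03 in KO and 1.27 ± 0.119 in WT, highest where acinar transcripts were high, and missed the threshold without WT replicate 1 (adjusted p = 0.061). Its log2 difference was 0.81 over the 6 libraries and 0.39 in KO replicate 1 alone. Rapgef6 (5.04 ± 0.339 in KO, 4.03 ± 0.391 in WT) did not pass without KO replicate 1 (adjusted p = 0.060), KO replicate 2 (0.11), WT replicate 1 (0.14) or WT replicate 2 (0.13). Without WT replicate 1 the count of called exchange factors fell to 2, in a fit that called 2482 of 11700 tested genes. Of 5 Rap GTPases, 2 rose and 0 fell: Rap2b (3.46 ± 1.20 FPKM in KO, 1.25 ± 0.162 in WT) and Rap2c (6.76 ± 0.846 in KO, 4.53 ± 0.307 in WT). Without KO replicate 3 the count of called Rap GTPases was 4, in a fit that called 4170 of 11640 tested genes. In KO replicate 1 alone the log2 difference of Rap2b was 0.54, against 0.95 over the 6 libraries, and that of Rap2c was 0.32 and did not pass (adjusted p = 0.053). Rap1a and Rap1b, the GTPases best known as Epac targets, did not pass, at 56.7 ± 3.37 FPKM in KO against 49.9 ± 1.15 in WT for Rap1a (adjusted p = 0.0505) and 176 ± 30.6 in KO against 184 ± 9.07 in WT for Rap1b (adjusted p = 0.65). Both were named after their values were seen.

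Of 6 Rap GTPase activating proteins, which switch Rap off, 2 rose and 2 fell. Sipa1l2 rose to 7.27 ± 0.682 FPKM in KO, against 2.24 ± 0.228 in WT (log2 difference 1.35, SE 0.09, adjusted p = 0.00036), and it passed in all 15 alternatives that tested it. Rap1gap2 was higher (96.4 ± 1.26 in KO, 84.9 ± 3.03 in WT), and Sipa1l1 (3.73 ± 0.234 in KO, 4.90 ± 0.155 in WT) and Sipa1l3 (14.2 ± 0.21 in KO, 16.4 ± 0.828 in WT) were lower. Rap1gap2 did not pass without KO replicate 2 (adjusted p = 0.076), KO replicate 3 (0.055), WT replicate 1 (0.12), WT replicate 2 (0.060) or WT replicate 3 (0.15). Sipa1l3 did not pass without KO replicate 1 (0.05005), KO replicate 2 (0.060), KO replicate 3 (0.060), WT replicate 1 (0.11) or WT replicate 3 (0.13), nor Sipa1l1 without WT replicate 1 (0.053) or WT replicate 3 (0.061). The count of called genes on this list was thus 1 without WT replicate 1 or WT replicate 3, and 2 without KO replicate 2 or KO replicate 3. Fewer genes were called in all of these fits than the 4657 of 11669 over the 6 libraries. The counts were 2482 of 11700 without WT replicate 1 and 2518 of 11690 without WT replicate 3. They were 3482 of 11555 without KO replicate 2 and 4170 of 11640 without KO replicate 3.

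Of the Epac partners in exocytosis, 5 of 7 were tested, 3 fell and 0 rose, with a median log2 difference of -0.28. Abcc8, the sulfonylurea receptor subunit of the beta cell potassium channel, fell to 140 ± 12.1 FPKM in KO, against 193 ± 4.56 in WT (log2 difference -0.46, SE 0.08, adjusted p = 0.0054). Rab3a, a GTPase of secretory granules, fell to 39.7 ± 5.84 in KO, against 58.7 ± 6.56 in WT (log2 difference -0.56, adjusted p = 0.011), and it did not pass in KO replicate 1 alone (-0.33, adjusted p = 0.079). Unc13a, a granule priming factor, was at 8.51 ± 0.347 in KO and 10.2 ± 0.892 in WT (adjusted p = 0.046). It did not pass without KO replicate 1 (adjusted p = 0.073), KO replicate 2 (0.063), KO replicate 3 (0.097), WT replicate 1 (0.15) or WT replicate 3 (0.16). In KO replicate 1 alone the log2 difference was -0.32 for Abcc8 and -0.26 for Unc13a. Beta, alpha and delta cell marker sums were also lower in KO, and their part in these falls was not tested.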

How the data were processed

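RNA of 6 islet libraries, 3 Ffar3 KO and 3 WT, was sequenced, with the group and number of each library read from its title. The submitters' processing notes name TopHat2 2.0.8b, Cuffdiff 2.1.1 and build mm10. The authors' deposited columns were read as FPKM, the unit Cuffdiff writes, since their decimals add up to different totals (416935 to 1056340). The sources used here give no annotation, strand setting or scaling. An FPKM value depends on all other genes of its library, and fragments shared between genes are split by estimate.

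No rescaling was applied. Genes averaging at least 1 FPKM were tested on log2(FPKM + 1) with limma 3.58.1 in R 4.3.3 (trended eBayes, two-sided, with group and no other term), with Benjamini-Hochberg adjustment over all 11669 genes and a threshold of 0.05. On this scale the change of low genes is understated. The fit was tested on simulated data with known changes. Positions came from GENCODE M21 (GRCm38, the assembly of mm10) and start windows from RefSeq, with all 8 members matched. The members and gene lists were chosen with earlier results of these data known. Named genes were all members, up to 4 called genes of the smallest p per list (or the 2 of highest mean), and the 2 genes of most like pattern per called member, some of which are not reported here. Map2 was matched under its older symbol Mtap2 and Cnbd2 under 4921517L17Rik. The acinar list includes Cpa3, better known from mast cells. Figures were drawn with matplotlib 3.10.9. No isolation date or library batch is given in the sources used here, so these and genotype cannot be told apart.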

Additional observations from a re-analysis of the deposited data

How the results depend on the processing

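Of the members, Prkar2b kept its direction and its call in all 16 alternatives, with log2 differences of -0.58 to -0.23. With no filter on low values the higher call of Prkar2a was lost (0.25), leaving 0 members higher; the same happened under quantile normalization (0.21) and with the replicate block (0.25, adjusted p = 0.056). With equal sums outside acinar and insulin genes, 1 member was called in all, 1 lower and 0 higher, and Prkaca (-0.28) and Prkar2a (0.24) were lost. With the acinar covariate, 2942 genes were called, 1278 of them lower, with 3 context genes lower and 1 member lower; Prkaca (-0.18) and Prkar2a (0.13) were lost, Prkacb was gained (0.35) and Prkar1b reversed (0.015). In KO replicate 1 alone, 3013 genes were called, 1317 of them lower, with 3 context genes lower and 1 member lower; Prkaca (-0.14) and Prkar2a (0.094) were lost, Prkacb was gained (0.40) and Prkar1b reversed (0.057). The cause of these changes was not tested.

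With each library left out in turn, the fits called 2482 genes (without WT replicate 1) to 5730 genes (without KO replicate 1), 1391 to 2891 higher and 1091 to 2839 lower, and 2518 without WT replicate 3. They called 1 to 6 members, 0 to 1 higher and 1 to 5 lower. The count of 6 came from the fit without KO replicate 1, which called 49.1% of all tested genes. Of the context genes they called 14 to 25, with 2 to 7 lower. Log2 differences ranged from -0.34 to -0.23 for Prkaca, 0.12 to 0.26 for Prkacb, 0.19 to 0.32 for Prkar2a, -0.33 to -0.19 for Prkar1a, -0.18 to -0.060 for Prkar1b and -0.31 to -0.15 for Rapgef4. Of 299 values of the 19 named context genes under the alternatives, 0 reversed and 52 lost a call.

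The values gave no sign that replicate numbers pair the libraries. Deviations from the group means correlated at -0.21, -0.09 and 0.03 for numbers 1, 2 and 3. Each KO library correlated best with a WT library of another number. With 3 libraries per group, such correlations cannot settle whether the libraries were paired. The block moved the count of called genes to 3865 from 4657. Rapgef3 could not be tested at a mean of at least 5 FPKM. Depth is unknown, so no counting error can be given for low values such as those of Rapgef3.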
